A study of Marchantia polymorpha and Klebsormidium nitens with 56 samples.

Results

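MpBHLH2 (Mp2g00890) and MpERF21 (Mp5g22160) are transcription factor genes of the liverwort Marchantia polymorpha, and they make up 2 of the 20574 genes in the deposited read count table. They were chosen because their counts were among those that lay furthest below the controls after heat, so their heat values, and every comparison between groups that are arms of a heat contrast, are given here as a description, with no test. Both passed the filter on low counts, together with 13432 genes in all that were tested. The RNA-seq libraries came from gemmalings, the plantlets that grow from vegetative propagules, which were 7 days old and kept in liquid medium at 22 °C under continuous light, with 2 libraries in each of 14 groups.

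The male-background groups were HSFA1X overexpression in Tak-1, HSFA1Y overexpression in Tak-1, hsfa1y with and without heat, hsfb1 with and without heat, and the male wild type Tak-1 with and without heat. The female-background groups were HSFA1X overexpression in BC3, HSFA1Y overexpression in BC3, hsfa1x with and without heat, and the female wild type BC3 with and without heat. HSFA1X, HSFA1Y and HSFB1 are heat shock factors, and heat was 37 °C for a time that the labels do not give for each library of these groups. The overexpression lines were sampled without heat. The labels call hsfa1y and hsfb1 knockouts. The hsfa1x libraries carry the word ox in their genotype field and xko in the sample sheet, and they are treated here as the knockout that their titles name. The labels give neither the promoter of the overexpression constructs nor how many lines each group holds, and they do not say whether the libraries of a group came from separate cultures, so p-values measure the spread between libraries, which may be technical.

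Heat shock factors bind DNA as trimers and switch on chaperone genes when proteins unfold, with class A members acting as activators and the class B members of plants mostly acting as repressors. Basic helix-loop-helix (bHLH) proteins bind DNA as dimers through a basic stretch beside the helix-loop-helix fold and control development, light responses and metabolism in land plants. AP2/ERF proteins carry the AP2 DNA-binding domain, a family to which the ethylene response factors of flowering plants belong, many of which act in responses to stress.

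Each library held between 17.7 and 23.997 M reads, and 5.13 to 7.94% of a library fell on its 10 most abundant genes. All 28 libraries were nearest to the other library of their own group. Identifiers on the male V chromosome took 0.207 to 0.271% of reads in the male background, 0.0385 to 0.0604% in the female background without HSFA1Y overexpression, and 0.0881 to 0.0948% in HSFA1Y overexpression in BC3. MpHSP90-1, a gene for the chaperone HSP90, stood at 3327 to 5491 CPM (reads scaled by library size and the trimmed mean of M values, TMM) in heated libraries other than hsfa1y. It stood at 370.5 to 399 CPM in heated hsfa1y, against 183.5 to 204.9 CPM in hsfa1y without heat. Levels were 510.3 to 727 CPM in the overexpression lines and 376 to 379.7 CPM in Tak-1 without heat. The files do not pair the identifiers of the heat shock factor genes themselves with these names, so the targeted genes were not checked here.

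MpBHLH2 had its highest levels in the male-background plants that were not heated and did not overexpress a heat shock factor. It stood at 44.9 and 50.1 CPM in hsfa1y without heat, at 47.6 and 50.003 CPM in hsfb1 without heat, and at 46.1 and 45.8 CPM in Tak-1 without heat. The BC3 libraries without heat came next, at 16.9 and 18.5 CPM, and no library of another group reached that level. Next in the order were heated hsfb1 (6.15 and 10.6 CPM), HSFA1Y overexpression in BC3 (7.79 and 5.57 CPM), HSFA1X overexpression in Tak-1 (6.74 and 6.56 CPM), hsfa1x without heat (6.83 and 5.53 CPM), HSFA1X overexpression in BC3 (4.63 and 5.39 CPM) and HSFA1Y overexpression in Tak-1 (5.28 and 4.65 CPM). The lowest levels were in heated hsfa1y (2.62 and 2.67 CPM), heated BC3 (2.66 and 2.13 CPM), heated hsfa1x (1.86 and 2.84 CPM) and heated Tak-1 (1.74 and 1.64 CPM). The groups thus lay on 4 levels, and neighbours in this order within a level did not differ beyond the spread between their libraries.

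MpERF21 had the same groups at the top but a wider spread below them. It stood at 34.5 and 34.7 CPM in hsfb1 without heat, at 31.8 and 30.7 CPM in Tak-1 without heat, at 22.4 and 27.9 CPM in hsfa1y without heat, and at 6.59 and 9.11 CPM in BC3 without heat. Each of the first 3 differed from the next by more than the spread between libraries. BC3 without heat was not separated in this way from heated hsfb1, at 6.92 and 5.58 CPM. HSFA1X overexpression in Tak-1 (2.67 and 2.77 CPM), heated BC3 (2.44 and 1.11 CPM), heated Tak-1 (1.52 and 1.11 CPM) and heated hsfa1x (1.33 and 1.24 CPM) followed, with no neighbours in that order beyond their spread. Below them lay hsfa1x without heat (0.719 and 0.798 CPM), HSFA1Y overexpression in BC3 (0.771 and 0.301 CPM), HSFA1Y overexpression in Tak-1 (0.508 and 0.547 CPM), HSFA1X overexpression in BC3 (0.312 and 0.363 CPM) and heated hsfa1y (0.101 and 0.486 CPM). Of the neighbours from heated hsfb1 down, heated hsfb1 and HSFA1X overexpression in Tak-1, heated hsfa1x and hsfa1x without heat, and HSFA1Y overexpression in Tak-1 and HSFA1X overexpression in BC3 differed beyond their spread. These last levels rest on few reads. Heated hsfa1y had 2 and 12 reads of MpERF21, for which counting error alone allows 0.242 to 7.22 reads and 6.20 to 20.96 reads (exact Poisson 95% intervals).

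Over the 14 group means the level of MpBHLH2 spanned 4.77 on the log2 scale and that of MpERF21 spanned 6.67, ranks 254 and 81 among the 13432 tested genes, whose median span was 1.06. In whole plantlets, fewer cells that express a gene and less RNA per cell cannot be told apart.

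**Figure D1:**
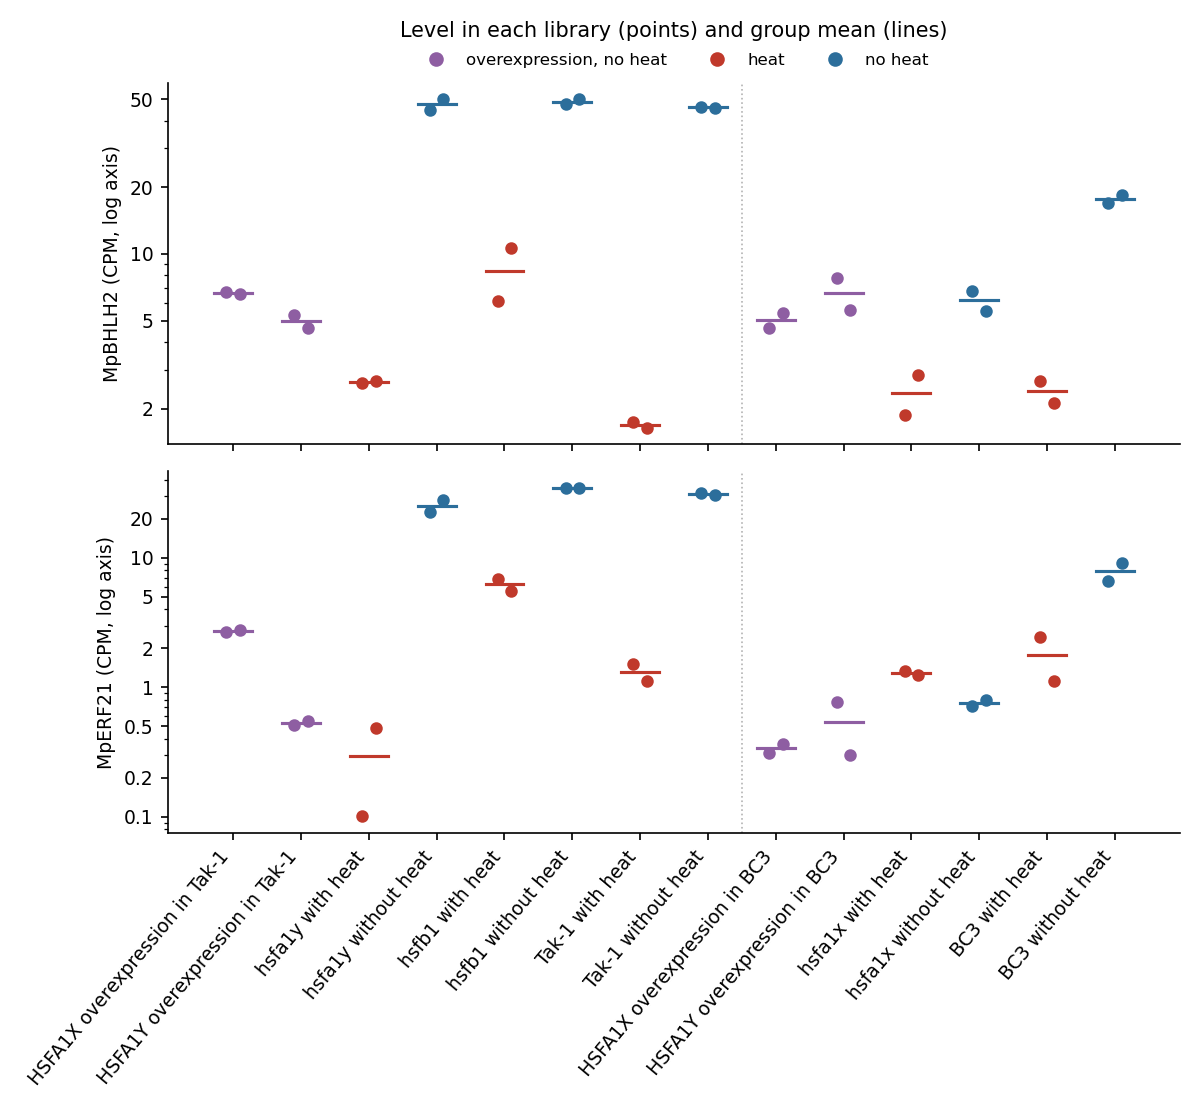
Level of MpBHLH2 (top) and MpERF21 (bottom) in CPM on a log axis, with 1 point for each library and a line at the mean of each group of 2; the dotted line separates male from female backgrounds. MpBHLH2 lies at 44.9 CPM or more in all 6 male-background libraries that were neither heated nor overexpressing, and at 10.6 CPM or less in all heated and overexpression libraries.

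With heat, MpBHLH2 stood lower in all 5 genotypes and MpERF21 in 4 of 5. In Tak-1, MpBHLH2 had 32 and 31 reads with heat, against 921 and 947 reads without heat, a 27.1-fold lower level (log2 change -4.76 ± 0.22 SE). MpERF21 had 28 and 21 reads in heated Tak-1, against 636 and 634 reads in Tak-1 without heat, and was 23.7-fold lower (log2 change -4.56 ± 0.27 SE). These were the 18th and 23rd lowest of the 13432 log2 changes in that comparison, in which 25.5% of genes were called lower. The genes were chosen on this contrast, so nothing is read from these ranks.

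The size of the difference with heat varied between genotypes. In BC3, MpBHLH2 was 7.35-fold lower with heat (log2 change -2.88 ± 0.21 SE) and MpERF21 4.33-fold lower (-2.11 ± 0.27 SE), where 24% of genes were called lower. The MpERF21 value in BC3 was -2.80 without BC3 with heat replicate 1, the library with 55 reads, and -1.68 without replicate 2, with 22 reads. In hsfa1y the log2 changes were -4.16 ± 0.20 for MpBHLH2 and -6.30 ± 0.33 for MpERF21 (22.4% of genes called lower), and in hsfb1 they were -2.54 ± 0.17 and -2.47 ± 0.22 (21.6% called lower). The size of the MpERF21 value in hsfa1y varied with the heated library left out. The log2 change was -5.68 without the library with 2 reads and -7.88 without the other heated one.

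In hsfa1x, MpBHLH2 stood at 1.86 and 2.84 CPM with heat, against 6.83 and 5.53 CPM without heat, a log2 change of -1.41 ± 0.24 (SE, 22.0% of genes called lower). MpERF21 stood at 1.33 and 1.24 CPM in heated hsfa1x, against 0.719 and 0.798 CPM in hsfa1x without heat, a log2 change of 0.76 ± 0.43 (SE). It was the one genotype in which neither heated MpERF21 library lay below the libraries without heat. The small difference with heat in this line stands beside a low level without heat, and the heated levels of hsfa1x and BC3 overlapped for both genes.

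As differences between heat responses, hsfb1 minus Tak-1 came to 2.22 ± 0.30 for MpBHLH2 and 2.10 ± 0.36 for MpERF21 on the log2 scale (SE). The same difference for hsfa1x minus BC3 came to 1.47 ± 0.33 and 2.88 ± 0.50, the MpERF21 value being 3.56 without BC3 with heat replicate 1. For hsfa1y minus Tak-1, MpBHLH2 had 0.60 ± 0.33 and MpERF21 had -1.74 ± 0.55, with opposite signs for these genes. The MpERF21 value was -3.31 without hsfa1y with heat replicate 2 and -1.10 without replicate 1. The Tak-1 minus BC3 difference was -1.88 ± 0.33 and -2.45 ± 0.41 (-1.78 for MpERF21 without BC3 with heat replicate 1), and it went with levels without heat that were higher in Tak-1. All of these differences use the contrasts on which the genes were chosen and carry no test.

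**Figure D2:**
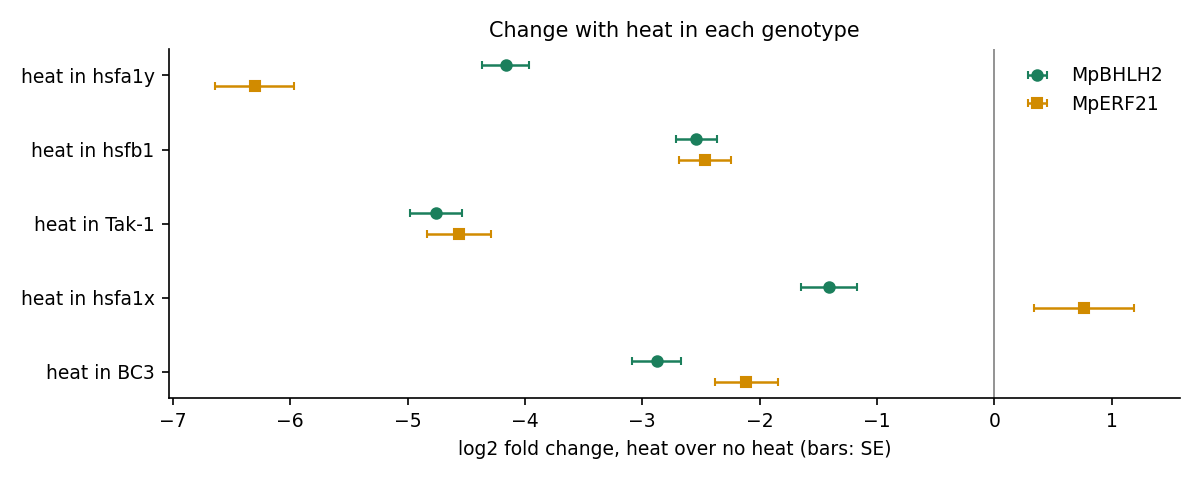
Log2 fold change of MpBHLH2 (circles) and MpERF21 (squares) with heat over without heat in each genotype, with bars for the SE of the fit over 28 libraries. The points lie between -6.30 and -1.41 except MpERF21 in hsfa1x, at 0.76.

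Without heat, both genes fell in all 4 groups that overexpress a class A heat shock factor, as tested with edgeR's quasi-likelihood test and p-values adjusted over all genes by the Benjamini-Hochberg method. These tests share their wild-type libraries with the heat contrasts on which the genes were chosen, so the level of the wild type is not independent of the choice. The overexpression libraries are not arms of a heat contrast. A wild-type level that was high by the choice would still enlarge these falls, and the p-values do not allow for that.

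In the male background, MpBHLH2 had 154 and 135 reads with HSFA1X overexpression and 104 and 85 reads with HSFA1Y overexpression, against 921 and 947 reads in Tak-1 without heat. It fell 6.90-fold with HSFA1X (log2 change -2.79 ± 0.18 SE, adjusted p = 1.82e-11), where 17.4% of genes were called lower. With HSFA1Y it fell 9.23-fold (-3.21 ± 0.19, adjusted p = 2.07e-12), where 19.5% were called lower. In each comparison both overexpression libraries lay below both wild-type libraries. MpERF21 had 61 and 57 reads with HSFA1X overexpression and 10 and 10 reads with HSFA1Y overexpression, against 636 and 634 reads in Tak-1 without heat. It fell 11.5-fold with HSFA1X (-3.52 ± 0.24, adjusted p = 6.44e-11) and 58.7-fold with HSFA1Y (-5.87 ± 0.31, adjusted p = 4.72e-13). The HSFA1Y change of MpERF21 ranked 13th lowest of the 13432 genes, a rank that shares the limit of the wild-type libraries.

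In the female background, MpBHLH2 had 89 and 104 reads with HSFA1X overexpression and 182 and 111 reads with HSFA1Y overexpression, against 380 and 411 reads in BC3 without heat. It fell 3.54-fold with HSFA1X (log2 change -1.82 ± 0.19 SE, adjusted p = 1.31e-07, 11% of genes called lower) and 2.64-fold with HSFA1Y (-1.40 ± 0.18, adjusted p = 3.13e-06, 10.9% called lower). MpERF21 had 6 and 7 reads with HSFA1X overexpression and 18 and 6 reads with HSFA1Y overexpression, against 148 and 202 reads in BC3 without heat. It fell 22.9-fold with HSFA1X (-4.51 ± 0.38, adjusted p = 3.26e-09) and 14.1-fold with HSFA1Y (-3.81 ± 0.33, adjusted p = 7.77e-09). Again all overexpression libraries lay below the BC3 libraries. The HSFA1Y value of MpERF21 was -4.69 without HSFA1Y overexpression in BC3 replicate 1, the library with 18 reads, and -3.35 without replicate 2. Over the overexpression lines of both backgrounds MpHSP90-1 stood at 510.3 to 727 CPM, against 387 to 394 CPM in BC3 without heat.

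The factors were also set against each other within a background, which uses no wild-type library. In Tak-1, MpERF21 was 5.12-fold lower with HSFA1Y than with HSFA1X overexpression (log2 change -2.36 ± 0.40 SE, adjusted p = 1.69e-04, 9.75% of genes called lower). MpBHLH2 did not pass the test in that comparison, with a log2 difference of -0.42 (95% interval -0.85 to 0.01, adjusted p = 0.184). In BC3, where 6.83% of genes were called in either direction, neither gene passed. There the log2 difference of HSFA1Y over HSFA1X was 0.42 (95% interval -0.01 to 0.85) for MpBHLH2 and 0.70 (95% interval -0.55 to 1.95) for MpERF21, so that the MpERF21 interval holds differences of more than 1 log2 unit.

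The size of the overexpression effect was compared between backgrounds as an interaction, which was added after the values had been seen. It includes the wild-type libraries of the heat contrasts on which the genes were chosen, so no p is given. With HSFA1Y, the Tak-1 effect minus the BC3 effect was -1.81 ± 0.26 (SE) for MpBHLH2 and -2.06 ± 0.59 for MpERF21, where 9.48% of genes were called lower. With HSFA1X it was -0.96 ± 0.26 for MpBHLH2 (4.74% called lower) and 1.00 ± 0.54 for MpERF21. Each of these values contains, with its sign reversed, the log2 difference between Tak-1 and BC3 without heat. That difference was 1.37 ± 0.16 for MpBHLH2 and 1.99 ± 0.21 for MpERF21. Left out 1 at a time, the libraries gave -1.08 to -0.86 for the HSFA1X value of MpBHLH2. The HSFA1Y value of MpERF21 came to -1.18 without HSFA1Y overexpression in BC3 replicate 1 and to -2.52 without replicate 2.

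**Figure D3:**
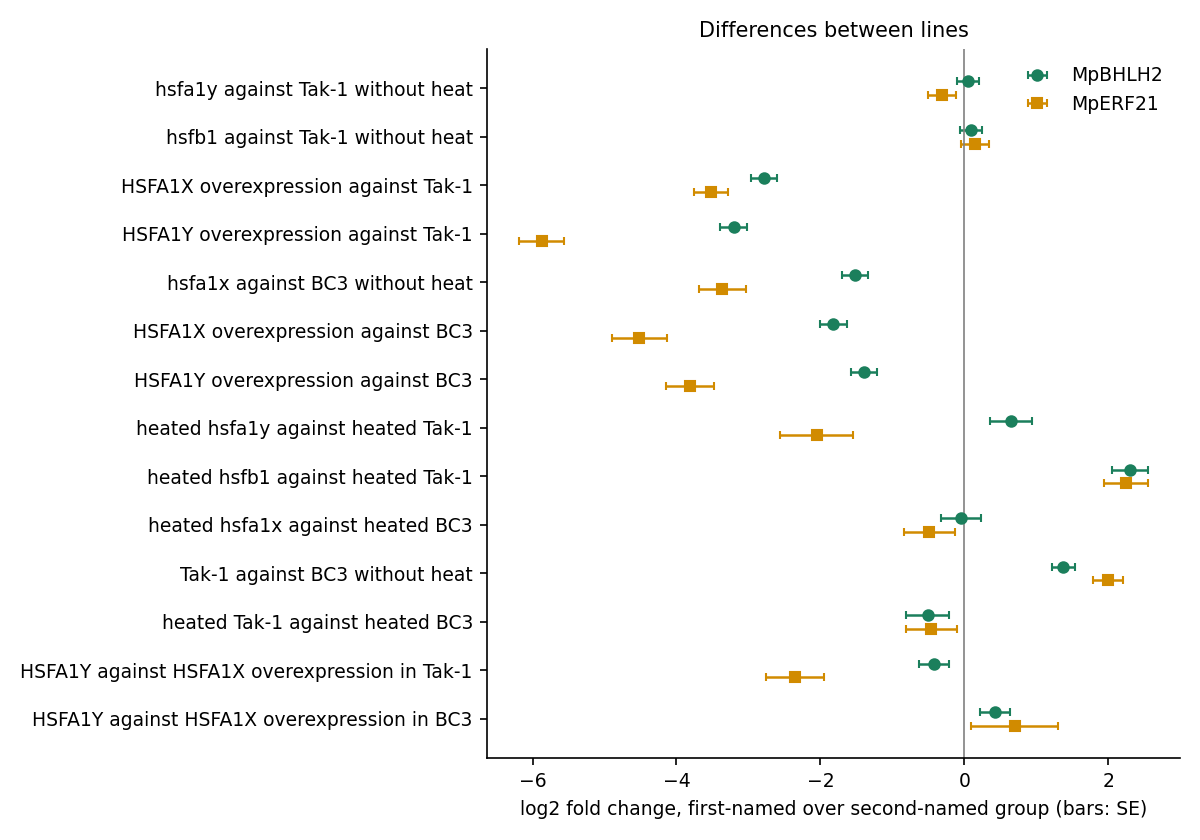
Log2 fold change of MpBHLH2 (circles) and MpERF21 (squares), first-named over second-named group, for each comparison between lines, with bars for the SE. Both genes lie left of 0 in the 4 overexpression comparisons with wild type and in hsfa1x without heat, and right of 0 in heated hsfb1.

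Among the knockouts without heat, hsfa1x stood apart from its wild type for both genes. MpBHLH2 had 133 and 104 reads in hsfa1x, against 380 and 411 reads in BC3, and was 2.86-fold lower (log2 change -1.52 ± 0.19 SE). MpERF21 had 14 and 15 reads in hsfa1x, against 148 and 202 reads in BC3, and was 10.3-fold lower (-3.36 ± 0.32). No library of hsfa1x overlapped those of BC3 for either gene. These groups are the arms without heat of the heat contrasts, so no test is given. Both genes thus stood lower in the line titled as the knockout of HSFA1X and in the lines that overexpress HSFA1X. Both hsfa1x libraries without heat had a BC3 library without heat as their nearest library of another group, and MpHSP90-1 stood at 394 to 404 CPM in hsfa1x, against 387 to 394 CPM in BC3.

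The levels in hsfa1y and hsfb1 without heat lay nearer to their wild type. In hsfa1y against Tak-1 the log2 change was 0.05 ± 0.15 (SE) for MpBHLH2 and -0.31 ± 0.19 for MpERF21. In hsfb1 against Tak-1 it was 0.09 ± 0.15 and 0.15 ± 0.19. These too are given without a test.

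With heat, both genes stood higher in hsfb1 than in its wild type. The comparisons between heated groups use the heated libraries on which the genes were chosen, so they are given without a test. MpBHLH2 had 119 and 202 reads in heated hsfb1, against 32 and 31 reads in heated Tak-1, a 4.95-fold higher level (log2 change 2.31 ± 0.25 SE). MpERF21 had 134 and 106 reads in heated hsfb1, against 28 and 21 reads in heated Tak-1, and was 4.74-fold higher (2.24 ± 0.30). Both heated hsfb1 libraries lay above both heated Tak-1 libraries for each gene. The heated hsfb1 levels were still below those of hsfb1 without heat, at 47.6 and 50.003 CPM for MpBHLH2 and 34.5 and 34.7 CPM for MpERF21.

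In heated hsfa1y the log2 changes against heated Tak-1 had opposite signs. MpERF21 had 2 and 12 reads in heated hsfa1y, against 28 and 21 reads in heated Tak-1, and was 4.14-fold lower (log2 change -2.05 ± 0.51 SE). Left out 1 at a time, the libraries gave -3.62 without hsfa1y with heat replicate 2 and -1.40 without hsfa1y with heat replicate 1. MpBHLH2 had 52 and 66 reads in heated hsfa1y, against 32 and 31 reads in heated Tak-1, a log2 change of 0.65 ± 0.29. In heated hsfa1x against heated BC3, where the libraries overlapped, the log2 change was -0.05 ± 0.27 for MpBHLH2 and -0.49 ± 0.35 for MpERF21. The MpERF21 value was 0.21 without BC3 with heat replicate 1.

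Between the wild types without heat, both genes stood higher in the male than in the female line. These libraries are the arms without heat of the contrasts on which the genes were chosen, so no test is given. MpBHLH2 stood at 46.1 and 45.8 CPM in Tak-1, against 16.9 and 18.5 CPM in BC3, and was 2.59-fold higher (log2 difference 1.37 ± 0.16 SE). MpERF21 stood at 31.8 and 30.7 CPM in Tak-1, against 6.59 and 9.11 CPM in BC3, and was 3.98-fold higher (1.99 ± 0.21). With heat the means lay the other way round. The log2 difference between heated Tak-1 and heated BC3 was -0.51 ± 0.30 for MpBHLH2 and -0.46 ± 0.36 for MpERF21, and the MpERF21 value was 0.21 without BC3 with heat replicate 1. Each sex is 1 wild-type line here, so sex and line cannot be told apart.

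The other members of both families were taken from gene symbols, whichever way they moved. Of 48 other bHLH genes 37 were tested, and of 29 other AP2/ERF genes 20 were tested. With heat in Tak-1, 17 of the 37 bHLH genes fell, 7 rose and 13 did not pass. Their median log2 change was -0.25, against -0.02 over all genes tested, of which 25.5% were called lower and 25.6% higher. Of the 20 AP2/ERF genes, 8 fell, 4 rose and 8 did not pass, with a median of -0.21. In BC3 the counts were 16 lower and 7 higher for bHLH genes and 10 lower and 4 higher for AP2/ERF genes. Of all genes tested, 24% were called lower there and 23.9% higher.

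With HSFA1X overexpression in Tak-1, 13 of the 37 bHLH genes fell and 7 rose. Of the 20 AP2/ERF genes, 3 fell and 5 rose (17.4% of all genes called lower, 15.1% higher). With HSFA1Y in Tak-1 the counts were 10 lower and 7 higher for bHLH genes and 6 lower and 3 higher for AP2/ERF genes. There 19.5% of all genes were called lower and 16.1% higher. In BC3, HSFA1X gave 5 lower and 7 higher bHLH genes and 7 lower and 3 higher AP2/ERF genes (11% called lower, 10.5% higher). HSFA1Y gave 7 lower and 6 higher bHLH genes and 5 lower and 7 higher AP2/ERF genes (10.9% called lower, 9.19% higher). Neither family moved in 1 direction as a whole in any of these comparisons, each having members called both higher and lower.

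Among the 31 bHLH genes at 5 CPM or more over all libraries, the lowest log2 changes with heat in Tak-1 after MpBHLH2 were those of MpBHLH4 (-4.20), MpBHLH39 (-2.83) and MpBHLH48 (-1.24), and the highest were those of MpBHLH15 (1.67), MpBHLH7 (1.38), MpBHLH3 (0.73) and MpBHLH30 (0.68). Among the 16 such AP2/ERF genes, MpERF7 (-3.89), MpERF11 (-3.11) and MpAP2B3-1 (-2.0) came after MpERF21, and MpERF20 (2.39), MpERF2 (1.94), MpAP2L3 (1.69) and MpERF18 (0.30) were highest. MpERF11 fell with heat as MpERF21 stood lower, but it did not pass in any overexpression comparison, where its log2 changes ran -0.02 and 0.12 in Tak-1 and -0.16 and -0.04 in BC3 for HSFA1X and HSFA1Y. MpERF7 fell with HSFA1Y in Tak-1 (-1.68 ± 0.17 SE, adjusted p = 4.02e-08) and with both factors in BC3 (-1.48 and -1.39), but did not pass with HSFA1X in Tak-1 (-0.41 ± 0.16, adjusted p = 0.0512). In heated hsfb1 MpERF7 averaged 26.97 ± 1.04 CPM, against 2.05 ± 1.48 CPM in heated Tak-1 (SD, n = 2 each). It stood higher in hsfb1, as MpERF21 did (log2 change 3.72 ± 0.22 SE). MpERF7 was named for its heat value in Tak-1, so no test is given for this difference. Its overexpression tests in Tak-1 share the libraries without heat of that choice.

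**Figure D4:**
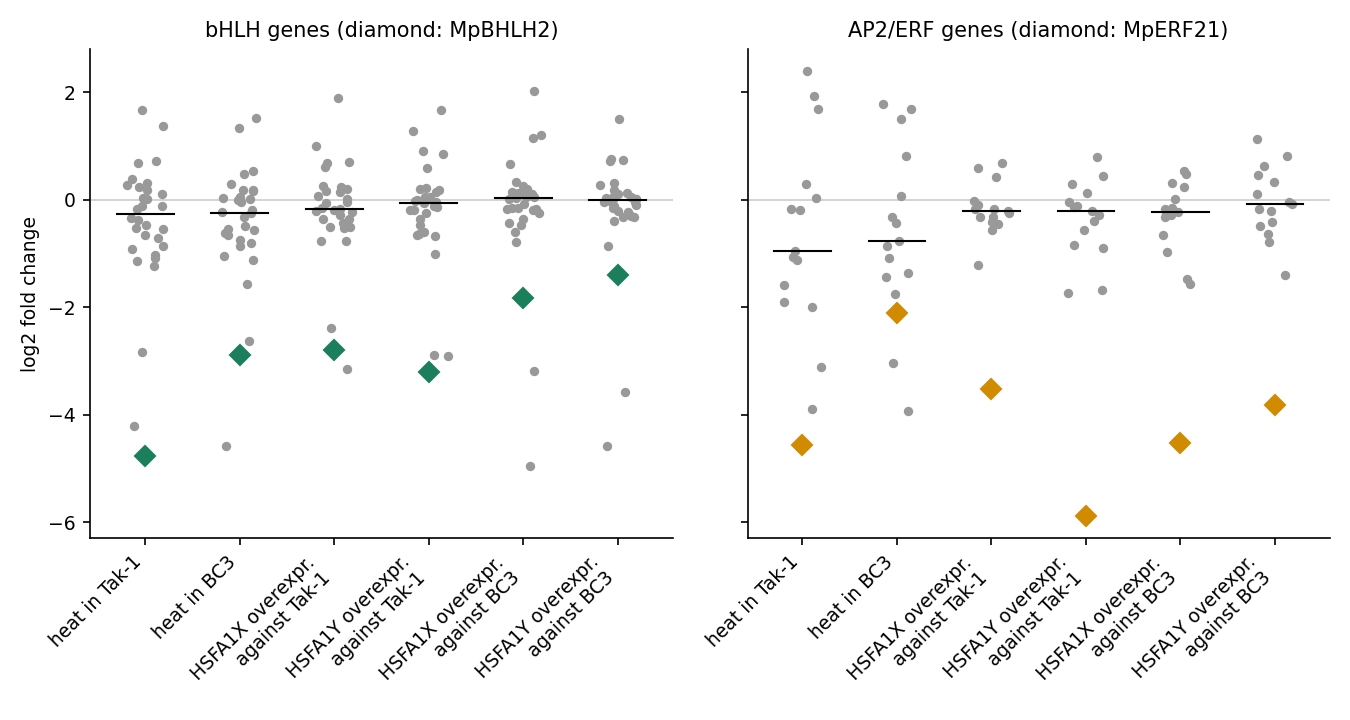
Log2 fold change of 31 bHLH genes (left) and 16 AP2/ERF genes (right) at 5 CPM or more, with heat and in the overexpression lines; grey points are single genes, diamonds the named gene, and black lines the median of the grey points. MpERF21 lies below every other AP2/ERF gene plotted in the 4 overexpression comparisons, where MpBHLH4 and MpBHLH3 lie near or below MpBHLH2.

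MpBHLH2 has bHLH genes as close neighbours. In the RefSeq annotation of assembly MpTak2_v7.1, MpBHLH3 (Mp2g00910) and MpBHLH4 (Mp2g00930) follow it on chromosome 2, each with 1 gene without a symbol in between that was too low to be tested. No annotated gene overlaps MpBHLH2 or MpERF21 there. The sources used here do not say how reads were shared between near-identical copies, and whether these bHLH genes share reads was not tested.

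All 3 neighbouring bHLH genes fell in the 4 overexpression comparisons. MpBHLH3 averaged 5.23 ± 0.0949 CPM with HSFA1X and 3.67 ± 0.377 CPM with HSFA1Y overexpression, against 27.2 ± 1.92 CPM in Tak-1 (SD, n = 2 each), with log2 changes of -2.38 and -2.89. In the female background it averaged 3.66 ± 0.490 CPM with HSFA1X and 2.77 ± 0.508 CPM with HSFA1Y, against 33.2 ± 1.59 CPM in BC3, with log2 changes of -3.18 and -3.57. MpBHLH4 had log2 changes of -3.15 and -2.90 in Tak-1 and -4.96 and -4.58 in BC3. The largest adjusted p of these MpBHLH3 and MpBHLH4 changes was 8.07e-09.

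The neighbours differed from MpBHLH2 with heat and in the knockouts. MpBHLH3 averaged 45.1 ± 1.39 CPM in heated Tak-1, against 27.2 ± 1.92 CPM in Tak-1 without heat. It stood higher with heat there (log2 change 0.73 ± 0.10 SE), where MpBHLH2 stood 27.1-fold lower. MpBHLH3 rose in BC3 (0.30, adjusted p = 0.0161), hsfa1y (0.80) and hsfa1x (0.46), and did not pass in hsfb1 (0.01, adjusted p = 0.940). MpBHLH4 fell with heat in all 5 genotypes, by least in hsfa1y (log2 change -1.96 ± 0.21) and by most in hsfa1x (-5.04 ± 0.25). In heated hsfa1y it averaged 6.89 ± 1.73 CPM, against 0.617 ± 0.0273 CPM in heated Tak-1 (log2 change 3.46 ± 0.34), where MpBHLH2 had a log2 change of 0.65 ± 0.29. MpBHLH3 and MpBHLH4 are also named for their heat values in Tak-1, so no test is given for comparisons with heated Tak-1. Their tests against Tak-1 without heat share libraries of that choice.

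In hsfa1x without heat, where MpBHLH2 and MpERF21 stood lower, MpBHLH4 rose, averaging 46.7 ± 12.5 CPM in hsfa1x, against 22.8 ± 2.56 CPM in BC3 (log2 change 1.03 ± 0.18 SE, adjusted p = 2.39e-04). MpBHLH3 did not pass there (0.09 ± 0.10, adjusted p = 0.613). Between the wild types without heat, MpBHLH4 was lower in Tak-1 than in BC3 (-0.99 ± 0.20, adjusted p = 6.26e-04), the opposite sign to MpBHLH2.

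Around MpERF21 on chromosome 5, the 7 tested genes among its 4 nearest on either side had log2 changes with heat in Tak-1 between -0.41 and 0.11. The only symbol among them was MpPPR_59, a pentatricopeptide repeat gene, at 0.11.

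**Figure D5:**
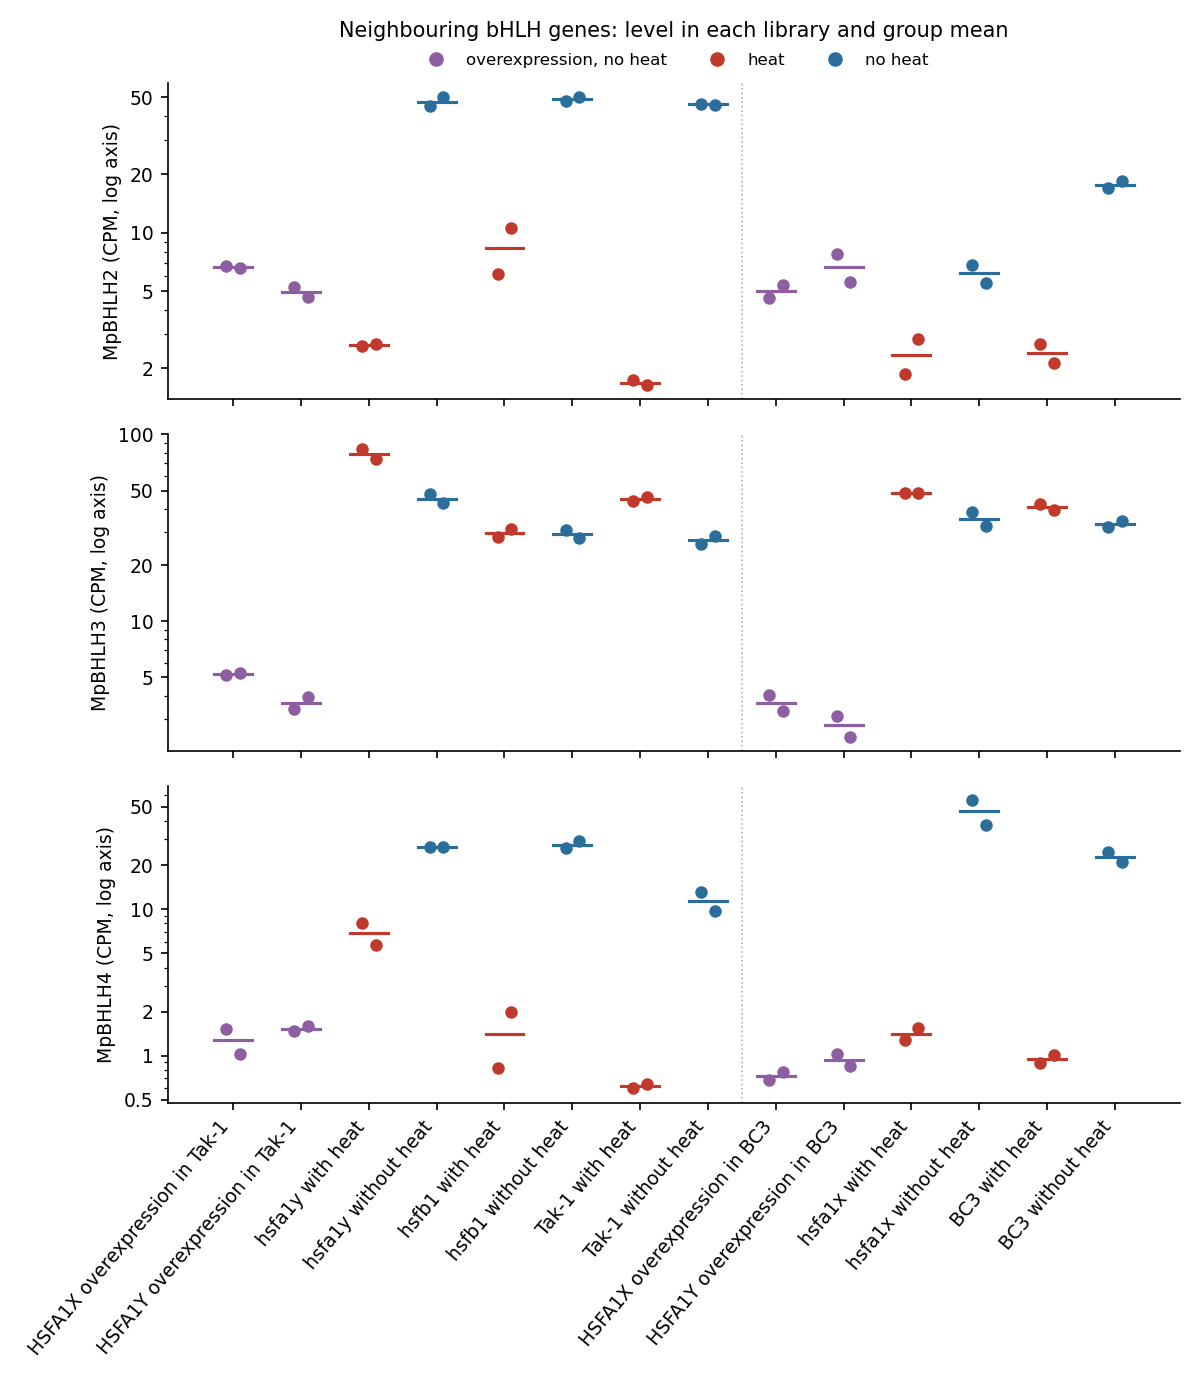
Level of MpBHLH2, MpBHLH3 and MpBHLH4 in CPM on log axes, with 1 point for each library and a line at each group mean; the dotted line separates male from female backgrounds. All 3 genes are low in the 4 overexpression groups, while MpBHLH3 is at 28.1 CPM or more in every heated library.

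Likeness of pattern was measured as Pearson's r of log2 CPM over the 14 group means, which share libraries and scaling and include the heat groups on which the genes were chosen, so no p is given. Among genes with a symbol and at 5 CPM or more, the 5 most like MpBHLH2 were MpATG18c, named for an autophagy protein (r = 0.974), MpGT8.5, a glycosyltransferase family 8 gene (0.959), the receptor-like kinase gene MpRLK-Pelle_URK-Pp-1c (0.956), and the exordium-like genes MpEXL3 (0.951) and MpEXL4 (0.95). Those most like MpERF21 were MpEXL5 (0.922), the glycoside hydrolase family 16 gene MpGH16.8 (0.891), the WRKY transcription factor gene MpWRKY14 (0.878), MpRLK-Pelle_URK-Pp-1c (0.876) and MpEXL4 (0.868). MpRLK-Pelle_URK-Pp-1c and MpEXL4 were on both lists. Most genes on each list changed when Spearman's rank correlation took the place of Pearson's. With HSFA1Y overexpression in Tak-1, the log2 change was -3.65 for MpWRKY14, -2.85 for MpGH16.8 and -0.91 for MpATG18c.

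Likeness of MpBHLH2 and MpERF21 to each other was r = 0.849. This ranked MpERF21 138th among the 13431 other tested genes for MpBHLH2, and MpBHLH2 27th for MpERF21. Over 0.9 there were 51 genes for MpBHLH2 and 5 for MpERF21.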

How the data were processed

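RNA was extracted from M. polymorpha gemmalings and sequenced, with 28 libraries in 14 groups of 2. Reads were aligned with STAR, per the submitters' processing notes. Its version, the genome build, the counting tool and its use of strand: not given in the sources used here. The authors deposited raw read counts per gene (20575 rows). An identifier listed on 2 rows was summed, leaving 20574 genes. Symbols came from the RefSeq table of assembly MpTak2_v7.1 through locus tags: 17641 genes matched and 3091 had a symbol. No coordinates are printed, since the build of the counts is not known. No sequence of these genes was used here.

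Counts were analysed in R 4.3.3 with edgeR 4.0.16: filterByExpr left 13432 genes holding 99.98% of reads, TMM scaling followed (factors 0.932 to 1.07), and 1 mean per group was fitted over all 28 libraries (14 residual degrees of freedom) with the quasi-likelihood F test. Adjusted p-values are Benjamini-Hochberg over all tested genes, with a threshold of 0.05. Tests had been planned for knockouts against wild type and for Tak-1 against BC3 as well, but all of their libraries are arms of the heat contrasts on which the genes were chosen, so their p-values for these genes are not given. The interactions between backgrounds include the difference of Tak-1 and BC3 and are likewise given without p-values. CPM are reads scaled to the TMM-adjusted library size. Log2 CPM used a prior count of 2. SE are from the fit and SD between 2 libraries. Levels in neighbouring groups were said to differ beyond their spread when the gap between means exceeded the sum of their SDs. Poisson intervals cover counting error only. Libraries of a group differed beyond sampling noise (chi-square per degree of freedom 2.32 to 18.6), so none was a repeat deposit. The test was tried on simulated counts with 200 changed genes. The outcome is not given here and is not used as support for any result.

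The members and gene lists were chosen with earlier results of these data known. Family genes named in the text are the 4 lowest and 4 highest log2 changes with heat in Tak-1 among those at 5 CPM or more. The genes named for likeness are the 5 with the highest r. MpBHLH3 and MpBHLH4 are also named as neighbours. Alternatives were RLE scaling, no filter, DESeq2 1.42.0, a fit on only the groups compared, leaving out each library, and a replicate block. A time course in another deposited table uses identifiers that are not paired with these and was not analysed here. MpERF12 and 3 bHLH genes in the closing section were chosen after their values were seen.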

Additional observations from a re-analysis of the deposited data

Results flagged for a closer look

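The following 3 results were flagged by an interaction between the male and the female background. It was added after the values had been seen and includes wild-type libraries of the heat contrasts on which the genes were chosen. Its p-values are therefore not given. Leaving out 1 library at a time keeps other libraries of that choice, so the refits cannot remove its effect. The effect of HSFA1Y overexpression on MpBHLH2 was -1.81 ± 0.26 on the log2 scale as Tak-1 minus BC3 (SE). This difference kept its sign when each of the 8 libraries was left out. The effect of HSFA1Y overexpression on MpERF21 differed by -2.06 ± 0.59, and by -2.52 to -1.18 with each of the 8 libraries left out. The effect of HSFA1X overexpression on MpBHLH2 differed by -0.96 ± 0.26, and by -1.08 to -0.86 with each of its 8 libraries left out. MpBHLH2 averaged 4.96 ± 0.449 CPM with HSFA1Y in Tak-1 and 6.68 ± 1.57 CPM with HSFA1Y in BC3, against 45.9 ± 0.201 CPM in Tak-1 and 17.7 ± 1.14 CPM in BC3 (SD, n = 2 each).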

How the results depend on the processing

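Under RLE scaling and DESeq2, all 50 fold changes and differences of these genes kept their direction, and those given with a test kept their side of the threshold. With no filter on low counts, the same held, although for MpBHLH2 in heated hsfa1y against heated Tak-1 (0.66), given above without a test, the planned test crossed the threshold. With only the groups compared, 49 stayed, and MpERF21 for HSFA1Y against HSFA1X in BC3 could not be fitted because the filter removed it. The replicate numbers did not pair the libraries (correlations of deviations -0.156 to 0.18), and with a replicate block all 50 kept their direction and the tested ones their call (for example -5.87 for MpERF21 with HSFA1Y overexpression in Tak-1), while counts of calls moved by 1.01 to 1.13 times.

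Libraries were left out 1 at a time, with a lone library assumed to vary like the other groups. Of 248 refits, 6 turned sign. Among the refits of heat contrasts and of differences between heat responses, 2 moved by more than the spread between libraries. The HSFA1X effect in Tak-1 minus BC3 on MpBHLH2 ran -1.08 to -0.86 and the HSFA1Y one on MpERF21 -2.52 to -1.18. Signs turned for MpERF21 in HSFA1Y against HSFA1X in BC3 (-0.18 to 1.16), heated hsfa1x against heated BC3 (-0.92 to 0.21) and heated Tak-1 against heated BC3 (-0.91 to 0.21), and for MpBHLH2 in heated hsfa1x against heated BC3 (-0.36 to 0.23) and hsfa1y against Tak-1 without heat (-0.014 to 0.13). MpERF21 with heat in hsfa1y ran -7.88 to -5.68 and its difference from Tak-1 -3.31 to -1.10. Mean levels moved by more than 1 SD in 6 of 28 cases under library totals alone and 2 under RLE. Spearman in place of Pearson kept 1 of the 5 genes named for likeness for each member, and the count of other bHLH genes called higher with heat in hsfa1x was 5 in DESeq2, against 8. Depth limits MpERF21 most, with 2 to 18 reads in the lowest libraries. The planned time course of these genes was not run.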

Other observations

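Some family genes chosen after their values were seen went the other way in the overexpression lines. MpBHLH30, a bHLH gene, averaged 70.4 ± 2.26 CPM with HSFA1X and 60.9 ± 1.49 CPM with HSFA1Y overexpression, against 19.03 ± 0.319 CPM in Tak-1 (SD, n = 2 each). In the female background it averaged 95.9 ± 0.136 CPM with HSFA1X and 66.6 ± 0.677 CPM with HSFA1Y, against 23.5 ± 2.83 CPM in BC3. Its log2 changes were 1.89, 1.68, 2.03 and 1.5. Those of MpBHLH31 were 1.01, 0.90, 1.16 and 0.75, and those of MpBHLH29 were 0.71, 0.85, 1.2 and 0.74. Since these genes were chosen after their values were seen, no test is given.

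MpERF12, an AP2/ERF gene, had 17 and 31 reads with HSFA1X and 17 and 23 reads with HSFA1Y overexpression in Tak-1, against 2 and 1 reads in Tak-1. It had 30 and 51 reads with HSFA1X and 19 and 22 reads with HSFA1Y in BC3, against 1 and 0 reads in BC3. These are few reads, and MpERF12 met the filter on low counts only through the overexpression groups. It was also chosen after its values were seen, so no test is given. MpERF21 fell in the same 4 comparisons.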
